A study of Mus musculus with 6 samples.

Results

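The 10 genes described here encode inflammasome components and related NLR proteins: the inflammasome sensors Nlrp1b, Nlrp3, Nlrc4 and Naip5, the peptidoglycan sensors Nod1 and Nod2, the adaptor Pycard (ASC), the caspases Casp1 and Casp4, and the pore former Gsdmd. They were chosen by gene symbol from the 46072 gene identifiers in the tables, by a rule that uses no measured value but was written with earlier results of these data known, and each symbol stood on 1 row. Messenger RNA was sequenced from monocytes isolated from the spleens of female C57BL/6 mice, 8 to 10 weeks of age with no other genotype given, by a magnetic isolation kit. The 3 Van mice received vancomycin by oral gavage, 1 mg given 2 times a day (2 mg a day) for 6 days, and then rested without the antibiotic for 6 to 8 days by the labels, or 8 days as the study describes the sequenced groups, while the 3 Con mice were gavaged with water on the same schedule. The comparison addresses which genes differed in resting splenic monocytes after vancomycin, an antibiotic that acts mainly on Gram-positive bacteria. After this gavage and rest the study also reports a lower proportion of fecal Bacteroidota, which it considers a possibly indirect effect. It reports lower plasma levels of the S/G lipids that these bacteria make as well. Each library is 1 biological replicate, and p-values measure the spread between these 6 libraries.

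Inflammasomes are protein complexes that assemble in the cytosol when a sensor meets a microbial product or cell damage. The sensor recruits pro-caspase-1, in many cases through the adaptor ASC. Activated caspase-1 cuts the precursors of the cytokines IL-1β and IL-18 and the protein gasdermin D, whose released fragment opens pores in the cell membrane. In mice, Casp4 encodes the protein long known as caspase-11, which binds cytosolic lipopolysaccharide and cuts gasdermin D without a sensor of the NLR family. Nod1 and Nod2 are NLR proteins that bind fragments of bacterial peptidoglycan and signal to NF-κB rather than to caspase-1. Monocytes carry these components at rest, and the activity of the complexes is set largely by assembly and cleavage, which RNA levels do not measure.

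The promoters of the 4 members whose values did not overlap between the groups are shown because these members all lay lower in Van. The sequences are from RefSeq windows on GRCm38.p6, which matched 9 of the 10 members by symbol, and run 5′ to 3′ up to the gene start, leaving out the bases that either annotation counts as transcribed. Capitals mark matches to the motifs searched.
Nlrp1b (chr11:71230734-71230983, minus strand): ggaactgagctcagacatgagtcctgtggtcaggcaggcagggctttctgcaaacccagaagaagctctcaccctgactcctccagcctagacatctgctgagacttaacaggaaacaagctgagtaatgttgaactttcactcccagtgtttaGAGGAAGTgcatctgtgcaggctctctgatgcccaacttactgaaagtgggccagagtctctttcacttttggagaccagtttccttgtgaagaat
Casp1 (chr9:5298267-5298516, plus strand): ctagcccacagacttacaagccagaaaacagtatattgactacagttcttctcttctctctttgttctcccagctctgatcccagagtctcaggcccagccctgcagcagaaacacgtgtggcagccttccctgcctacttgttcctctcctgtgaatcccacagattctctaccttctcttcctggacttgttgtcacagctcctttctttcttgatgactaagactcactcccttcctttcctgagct
Nod2 (chr8:88647097-88647314, plus strand): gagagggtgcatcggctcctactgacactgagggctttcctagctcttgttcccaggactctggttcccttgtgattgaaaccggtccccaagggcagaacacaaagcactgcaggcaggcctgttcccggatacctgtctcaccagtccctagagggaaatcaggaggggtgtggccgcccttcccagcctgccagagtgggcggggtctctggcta
Casp4 (chr9:5308599-5308827, plus strand): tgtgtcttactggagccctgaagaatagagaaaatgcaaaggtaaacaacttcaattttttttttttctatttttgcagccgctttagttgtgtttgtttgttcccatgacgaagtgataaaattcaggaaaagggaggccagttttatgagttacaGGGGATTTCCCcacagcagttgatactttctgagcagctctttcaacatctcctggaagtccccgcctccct

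In these windows of 250 bases before the RefSeq start, 6 motifs were searched on both strands, namely ISRE (GAAANNGAAA), GAS (TTCNNNGAA), PU.1 (GAGGAAGT), AP-1 (TGANTCA), the glucocorticoid response element (AGAACANNNTGTNCT) and the κB site by its usual consensus. The capitals in Nlrp1b are a PU.1 match that begins 96 bases before the start. The capitals in Casp4 are 2 overlapping κB matches that begin 93 and 92 bases before it. No match to any of the 6 motifs was found in the Casp1 or Nod2 windows. Among the other members, PU.1 letters were found before Pycard and κB letters before Naip5 and Nlrp3. Over all 32851 RefSeq windows, 2.44% held the PU.1 letters and 3.90% the κB letters. ISRE, GAS, AP-1 and glucocorticoid letters were in 0 of the 9 member windows, against 2.98%, 7.02%, 6.75% and 0.0365% of all windows.

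The libraries held between 43.38M and 61.83M estimated counts. Markers of monocytes were high in all 6 mice: the summed level of 6 pan-monocyte genes was 16481 to 17682 CPM (counts scaled to the size of the library) in Con and 15079 to 17488 in Van, although Fcgr1 among them was called lower in Van, and Ccr2 lower and Vcan higher among the Ly6C-high markers. The Ly6C-high list summed to 2097 to 2858 CPM in Con and 1829 to 3471 in Van. The Ly6C-low list summed to 7708 to 8689 CPM in Con and 7725 to 10216 in Van. All these sums rest on different genes and do not give the share of a cell type. The B cell list summed to 621 to 720 CPM in Con and 462 to 500 in Van, with 1 of 8 genes called lower (Ighm). The dendritic cell list summed to 173 to 213 CPM in Con and 145 to 176 in Van, which overlap, with 1 of 9 genes called lower (Clec9a, log2 fold change -1.12; edgeR, adjusted p = 0.0131). The erythroid list summed to 82.4 to 171 CPM in Con and 284 to 629 in Van, with 5 of 9 genes called higher. The red pulp macrophage list (3783 to 4541 against 4333 to 5781 CPM), the neutrophil list (43.9 to 67.6 against 36.3 to 94.1, with Ly6g and Camp under 1 CPM in every library) and the T cell list (43.8 to 57.3 against 32.9 to 46.5) overlapped between the groups. The part of these cell type differences in the results below was not tested, and in such bulk samples fewer cells of a type cannot be told apart from less RNA per cell.

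Of these 10 genes, 1 was lower in the Van group than in the Con group at an adjusted p of at most 0.05 in edgeR's quasi-likelihood test, and 0 were higher. That gene was Nlrp1b, at 38.4 ± 4.46 CPM in Con and 26.6 ± 1.07 in Van (SD, n = 3 each), a decrease of 30.6%. Among the 16138 genes tested, 2.00% were called and 0.917% were called lower. Casp1 lay just outside the threshold, with an adjusted p of 0.05001 (edgeR). For 4 members, Nlrp1b, Casp1, Nod2 and Casp4, the 3 Van values were all below the 3 Con values, against 11.0% of all genes with such a separation toward lower values and 22.5% with one in either direction. The same 4 had an unadjusted edgeR p under 0.05, as did 16.5% of all genes. By point estimate 9 members were lower and 1 higher in Van, and the median log2 fold change was -0.11 over the 10, compared with -0.00 over all genes tested. With DESeq2 3 members were called, Nlrp1b, Casp1 and Nod2, where that test called 7.36% of genes.

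**Figure D1:**
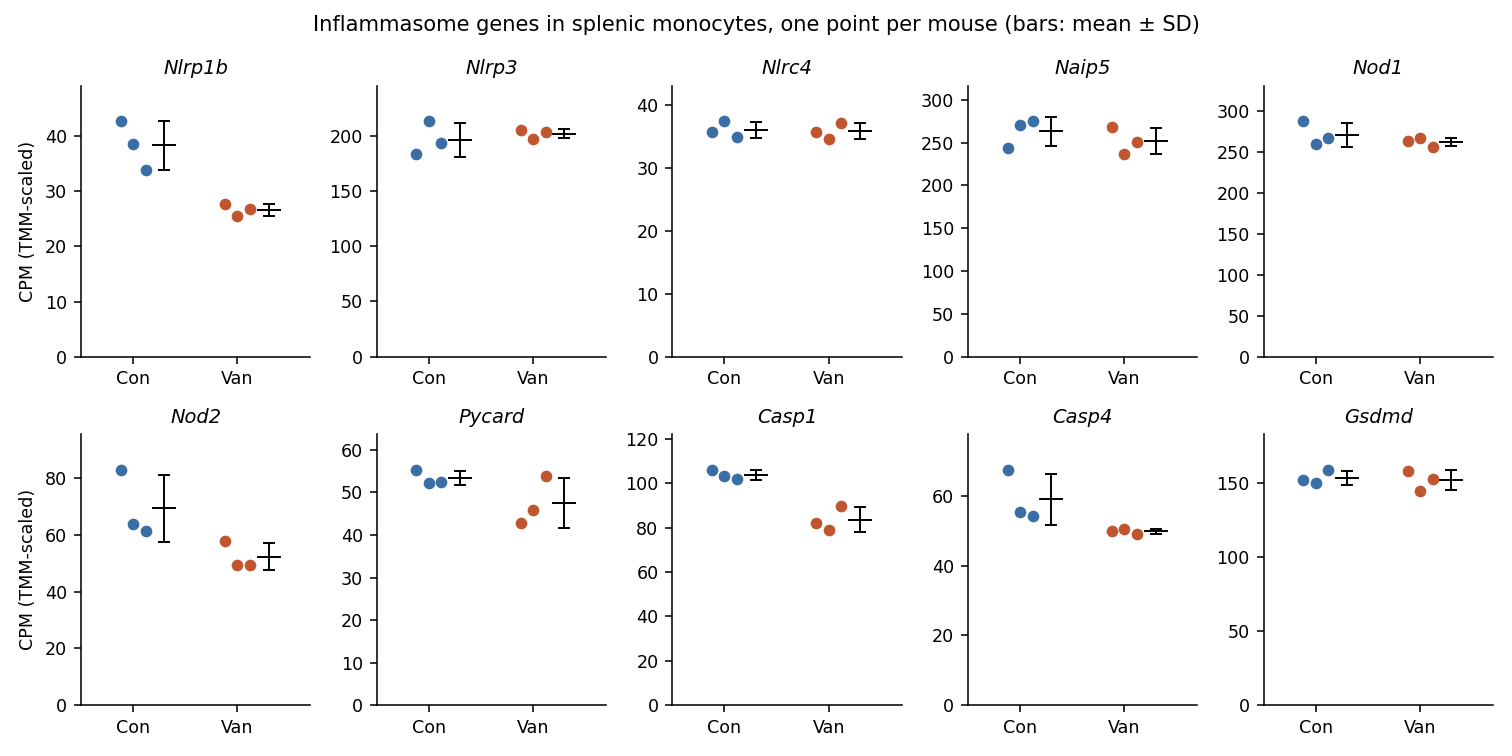
CPM of each of the 10 members (y axis, TMM-scaled, from 0) in the 3 Con (blue) and 3 Van (orange) mice, 1 point per mouse, with the mean ± SD as a black bar. For Nlrp1b, Nod2, Casp1 and Casp4 every Van point lies below every Con point, and for the other 6 genes the groups overlap.

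Among the sensors, Nlrp1b is a cytosolic protein activated when a protease cuts its amino-terminal part, and the allele of C57BL/6 mice does not respond to anthrax lethal toxin. The gene (ENSMUSG00000070390) lies on the minus strand of chromosome 11, at 71153102-71230733 of GRCm38. Its levels were 42.7, 38.6 and 33.8 CPM in the Con mice and 27.6, 25.5 and 26.8 CPM in the Van mice. The lowest Con mouse was above the highest Van mouse, and the Con mice spread more widely than the Van mice. The log2 fold change was -0.53 ± 0.09 (SE; 95% interval -0.74 to -0.32; edgeR, adjusted p = 0.0319). An exact two-sided permutation test gave p = 0.10, the smallest that 3 mice against 3 allow. The call was lost whichever mouse was left out: the adjusted p (edgeR) was 0.0680, 0.0980 and 0.0599 without Con 1, 2 or 3, and 0.0696, 0.141 and 0.0972 without Van 1, 2 or 3, with log2 fold changes between -0.61 and -0.45.

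Nlrp1b has close relatives beside it on chromosome 11, Nlrp1a (71092236-71144704) and the transcribed pseudogene Nlrp1c-ps (71242430-71285232), both on the minus strand. The best match of Nlrp1b transcripts was 3763 bases at 84.8% identity with Nlrp1a and 3435 bases at 83.9% with Nlrp1c-ps, under the limit of 95% over 200 bases used here for near-identical copies. These identities are averages over a whole match. Whether shorter stretches within it are more alike, so that reads could be shared, was not tested. Nlrp1a was at 30.6, 28.5 and 26.3 CPM in Con and 26.2, 28.6 and 29.9 in Van, so the groups overlapped, with a log2 fold change of -0.01 (95% interval -0.20 to 0.18; edgeR, adjusted p = 0.963). Nlrp1c-ps fell together with Nlrp1b, from 20.7, 17.2 and 16.2 CPM to 13.1, 11.8 and 11.9, a log2 fold change of -0.55 ± 0.11 (edgeR, adjusted p = 0.0456, and 0.0791 to 0.174 with any 1 mouse left out). Within each mouse, the ratio of Nlrp1b to Nlrp1a in FPKM, a level per transcript length, was 1.26, 1.22 and 1.14 in Con and 0.963, 0.797 and 0.836 in Van. All Con mice thus had more Nlrp1b than Nlrp1a per length and all Van mice less, and the exact two-sided permutation p was 0.10. These ratios, like the others below, were chosen after the values were seen. As Nlrp1a hardly differed between the groups, they restate the lower Nlrp1b and are no separate evidence. With the counts of the 3 genes added, the sum was 94.0, 84.3 and 76.3 CPM in Con and 66.9, 65.9 and 68.6 in Van, with a log2 fold change of -0.34 (edgeR, adjusted p = 0.0746).

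**Figure D2:**
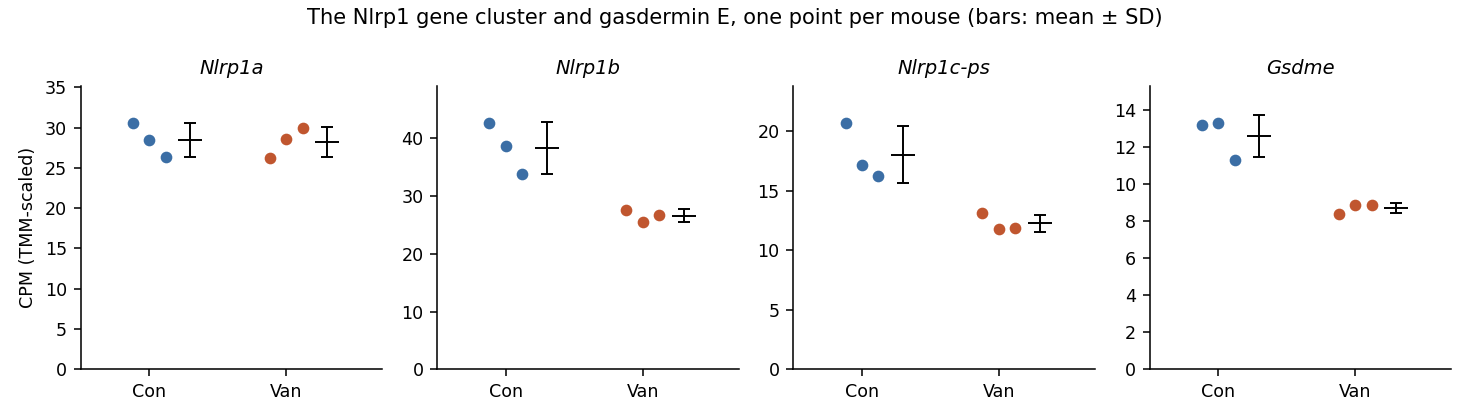
CPM of Nlrp1a, Nlrp1b, Nlrp1c-ps and Gsdme (y axes, TMM-scaled, from 0) in each Con (blue) and Van (orange) mouse, with the mean ± SD as a black bar. Nlrp1b, Nlrp1c-ps and Gsdme are lower in every Van mouse than in every Con mouse, while the Nlrp1a points overlap, at 26.3 to 30.6 CPM in Con and 26.2 to 29.9 in Van.

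The genes whose course over the 6 libraries was most like that of Nlrp1b, among 8486 genes with a mean of at least 10 CPM, were Nlrp1c-ps, Gsdme and Slc2a9. The root mean square difference of their centred log2 CPM from that of Nlrp1b was 0.0495, 0.0743 and 0.0786. The centred values include the gap between the groups, so genes picked this way have fold changes near that of Nlrp1b by selection. Their separation is no independent evidence, and a shared regulation was not tested. Gsdme, listed under its older symbol Dfna5, encodes gasdermin E, a relative of gasdermin D that caspase-3 cuts. It was at 13.2, 13.3 and 11.3 CPM in Con and 8.37, 8.84 and 8.87 in Van, with no overlap (log2 fold change -0.54 ± 0.10; edgeR, adjusted p = 0.0411, and 0.0829 to 0.148 with any 1 mouse left out). Slc2a9, a urate transporter, had a log2 fold change of -0.51 and did not pass the threshold (edgeR, adjusted p = 0.0696).

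Nlrp3, the sensor of potassium loss and many other signs of cell damage, was at 183, 213 and 193 CPM in Con and 205, 197 and 203 in Van. The Van values lay inside the Con range, and the log2 fold change was 0.04 (95% interval -0.11 to 0.19; edgeR, adjusted p = 0.828). Nlrc4, which builds the inflammasome for flagellin and type III secretion proteins, was at 35.7, 37.5 and 35.0 CPM in Con and 35.8, 34.7 and 37.2 in Van, again overlapping, with a log2 fold change of -0.01 (-0.15 to 0.14; adjusted p = 0.976). Naip5 binds flagellin and brings Nlrc4 into the complex. It was at 244, 271 and 275 CPM in Con and 268, 237 and 251 in Van, overlapping, with a log2 fold change of -0.06 (-0.22 to 0.10; edgeR, adjusted p = 0.732). With a mouse left out the Naip5 estimate ran from -0.12 (without Con 1) to -0.02 (without Van 2).

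Naip5 shares long stretches with its neighbours on chromosome 13, 4398 bases at 96.9% identity with Naip6 and 1856 bases at 95.5% with Naip1, so that reads could be split between them and the Naip5 level is uncertain. Naip6, Naip2 and Naip1 had log2 fold changes of -0.12, -0.12 and -0.17, with overlapping groups and edgeR adjusted p-values of 0.438, 0.403 and 0.618. With a mouse left out they ran from -0.18 (without Van 1) to -0.07 (without Van 2) for Naip6, from -0.15 to -0.08 for Naip2, and from -0.29 (without Con 1) to -0.07 (without Con 2) for Naip1. Naip2 and Naip1 encode the receptors for rod and needle proteins of type III secretion systems. The added counts of the Naip genes were 722, 777 and 782 CPM in Con and 757, 668 and 705 in Van, which overlap as well.

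Nod2, the peptidoglycan receptor for muramyl dipeptide (ENSMUSG00000055994, chromosome 8, 88647315-88688474, plus strand), was at 82.9, 63.9 and 61.3 CPM in Con and 57.7, 49.5 and 49.5 in Van. The groups did not overlap, with Con 1 well above the other Con mice. The log2 fold change was -0.41 ± 0.12 (95% interval -0.68 to -0.13; edgeR, adjusted p = 0.136), and -0.26 without Con 1, while DESeq2 gave an adjusted p of 0.0199. Nod1, which binds diaminopimelic acid containing fragments, was at 287, 259 and 266 CPM in Con and 263, 266 and 256 in Van, which overlapped, with a log2 fold change of -0.05 (-0.18 to 0.08; edgeR, adjusted p = 0.748). With a mouse left out the Nod1 estimate ran from -0.08 (without Con 2) to -0.01 (without Con 1). The difference between the changes of Nod2 and Nod1 was not tested.

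Pycard, the adaptor through which sensors can recruit caspase-1, was at 55.3, 52.2 and 52.5 CPM in Con and 42.7, 45.9 and 53.9 in Van. The Con mice lay close together, and 2 of the 3 Van mice were below all of them while Van 3 was within their range. The log2 fold change was -0.17 (95% interval -0.37 to 0.04; edgeR, adjusted p = 0.402), and it was -0.09 without Van 1 and -0.27 without Van 3. Its exons overlap those of Gm45205 on the opposite strand over 485 bases, and whether the counting used the strand is not stated.

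Casp1 encodes the protease that inflammasomes activate (ENSMUSG00000025888, chromosome 9, 5298517-5307265, plus strand). It was at 106, 103 and 102 CPM in Con and 81.9, 78.9 and 89.8 in Van. The Con mice had a coefficient of variation of 1.52%, and the highest Van mouse was below all of them. The log2 fold change was -0.31 ± 0.06 (95% interval -0.46 to -0.17), a difference of -19.5%, with an unadjusted p of 0.0010 and an adjusted p of 0.05001 (edgeR). Left-out mice gave log2 fold changes of -0.37 to -0.27 and adjusted p-values of 0.0634 to 0.193 (edgeR), and DESeq2 gave 7.9e-04. Casp4, its neighbour on the same strand (ENSMUSG00000033538, chromosome 9, 5308828-5336783), was at 67.4, 55.3 and 54.3 CPM in Con and 49.9, 50.4 and 49.1 in Van. The groups did not overlap, but Con 1 carried much of the distance, with a log2 fold change of -0.24 ± 0.09 (95% interval -0.45 to -0.04; edgeR, adjusted p = 0.216) that was -0.14 without Con 1. Casp12, the next caspase gene along the chromosome, had a log2 fold change of -0.48 that did not pass the threshold (edgeR, adjusted p = 0.239), and it was named after its value was seen.

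Gsdmd, whose cleaved product forms the membrane pores of pyroptosis, was at 152, 150 and 159 CPM in Con and 158, 145 and 153 in Van. The groups overlapped, with a log2 fold change of -0.01 (95% interval -0.15 to 0.12; edgeR, adjusted p = 0.939). Ratios within each mouse set the protease beside its substrate and partners. Casp1 over Gsdmd in FPKM was 0.824, 0.821 and 0.763 in Con and 0.613, 0.647 and 0.696 in Van, with no overlap, and Casp1 over Nlrp3 was 1.52, 1.29 and 1.41 in Con and 1.05, 1.06 and 1.14 in Van, also with none (exact two-sided permutation p = 0.10 for both). Gsdmd and Nlrp3 hardly differed between the groups, so both separations restate that of Casp1 and are no separate evidence. Casp1 over Pycard and Casp1 over Casp4 overlapped between the groups, with means of 1.83 and 1.66 for the first and 1.54 and 1.47 for the second in Con and Van (exact two-sided permutation p = 0.200 and 0.700).

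**Figure D3:**
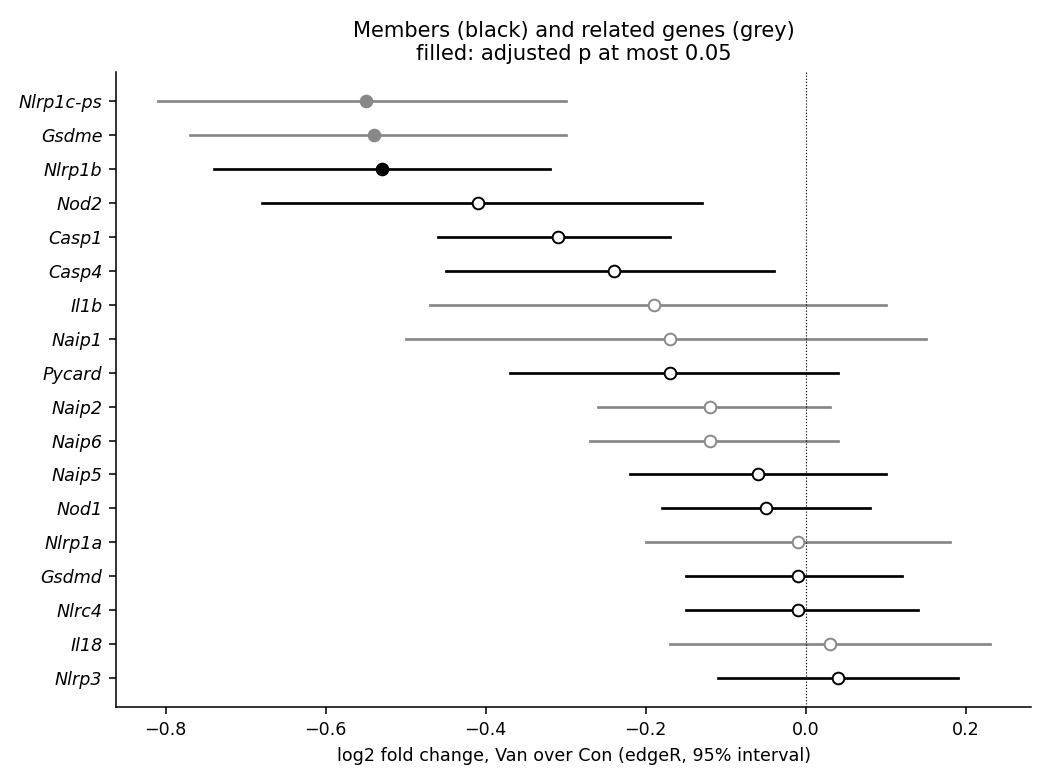
Log2 fold change of Van over Con (x axis, edgeR point estimate with its 95% interval) for the 10 members in black and 8 related genes in grey, ordered from lowest to highest. Filled points passed an adjusted p of 0.05, which holds for Nlrp1b, Nlrp1c-ps and Gsdme, and the intervals of Nod2, Casp1 and Casp4 also lie below 0.

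Per transcript length, the pore former was the most abundant member and Nlrp1b the least. Mean FPKM over the 6 mice was 72.2 for Gsdmd, 52.5 for Casp1, 51.7 for Nod1, 42.4 for Nlrp3, 41.5 for Naip5, 35.0 for Casp4, 30.1 for Pycard, 11.3 for Nod2, 7.86 for Nlrc4 and 6.53 for Nlrp1b, so that the highest and the lowest differed 11.1-fold. In this order the ranges of Casp1 and Nod1, of Nlrp3, Naip5, Casp4 and Pycard from one to the next, and of Nlrc4 and Nlrp1b overlapped. As CPM per kilobase of the longest transcript, a length that need not be the one expressed, 8 of the 10 kept their place, with Naip5 and Nlrp3 both at 49.5. On that scale Pycard, at 13.3, was close to Nod2 at 12.9, and Nlrp1b, at 7.52, close to Nlrc4 at 7.61. The FPKM order also kept 8 places without Con 2 or without Con 3, and all 10 without any other mouse. Gsdmd stood above Casp1 in every mouse, with 69.8 FPKM as its lowest value and 58.4 as the highest of Casp1. In FPKM Casp1 was 58.4, 57.4 and 58.2 in Con and 45.6, 45.1 and 50.2 in Van, while Nod1 was 54.9, 49.9 and 52.3 in Con and 50.8, 52.7 and 49.5 in Van. Casp1 was above Nod1 in each Con mouse and in Van 3, and below it in Van 1 and Van 2. Nlrp1b, the member that passed the test, was also the lowest in FPKM, at 8.45, 7.65 and 6.78 in Con and 5.57, 5.19 and 5.53 in Van, with 1299 to 2314 estimated counts of it in a library, or about 487 to 868 fragments if a count stands for 75 read bases. In Con its values reached those of Nlrc4 (7.69 to 8.10), and in Van they all lay below Nlrc4 (7.75 to 8.10).

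**Figure D4:**
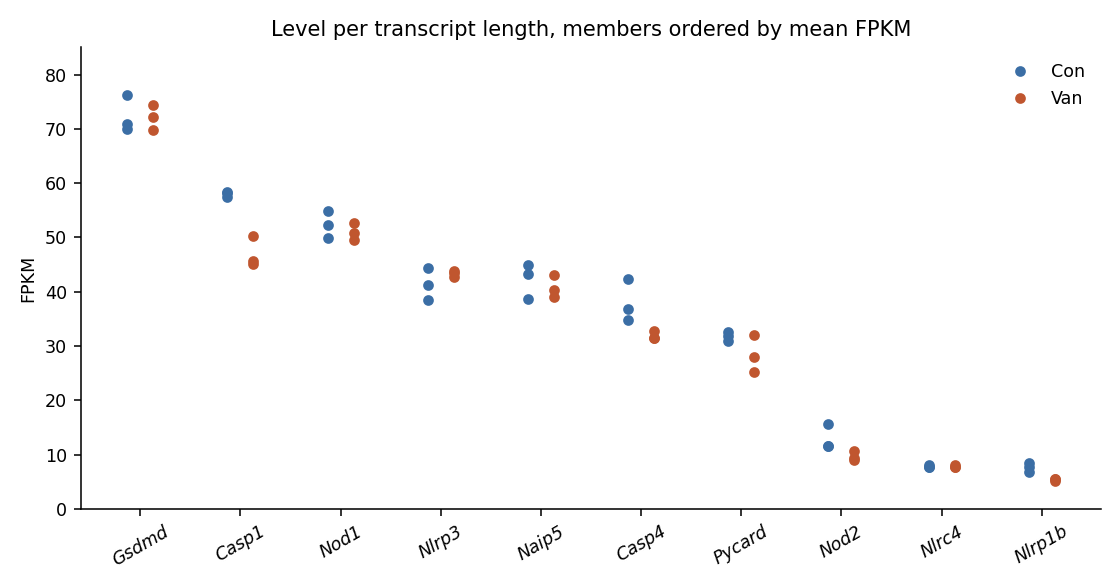
FPKM (y axis, from 0) of the 10 members in each Con (blue) and Van (orange) mouse, ordered from left to right by the mean over all 6 mice. Gsdmd is highest at 69.8 to 76.3 FPKM, and Nod2, Nlrc4 and Nlrp1b form the low end with all values at or under 15.6 FPKM.

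In 5 lists of related genes, each gene counted once, 104 of 117 were tested and 6 called, 1 higher and 5 lower in Van, which is 5.77% against 2.00% of all genes tested, where 174 were higher and 148 lower. Their median was -0.05. DESeq2 called 14 of them, 5 higher and 9 lower. The lists were chosen with earlier results of these data known, so these counts are no independent evidence of a direction. Of 17 other sensors 14 were tested and 2 called, both lower: Nlrp1c-ps and Aim2, the receptor for cytosolic DNA, at 118, 112 and 121 CPM in Con and 92.6, 83.9 and 83.1 in Van (log2 fold change -0.44 ± 0.07; edgeR, adjusted p = 0.0223). The call of Aim2 held without Van 1 (0.0321) and was lost when any other mouse was left out (edgeR, adjusted p = 0.0554 to 0.120). The median of this list was -0.12. Nlrx1, a mitochondrial NLR, had the highest estimate, 0.27, with 51.4, 51.5 and 56.2 CPM in Con all below 61.4, 62.1 and 68.2 in Van, and did not pass with edgeR (adjusted p = 0.0956) but did with DESeq2 (adjusted p = 0.0201).

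Of 30 partners in NLRP3 activation 29 were tested (median -0.04) and 1 was called. This was the chaperone Hsp90ab1, which holds NLRP3 in a form ready for activation, at 917, 914 and 1102 CPM in Con and 1390, 1452 and 1353 in Van (log2 fold change 0.52 ± 0.08; edgeR, adjusted p = 0.0230). Every Van mouse was above every Con mouse, and the call held without Con 3 (0.0294) and was lost when any other mouse was left out (edgeR, adjusted p = 0.0573 to 0.113). The lowest estimate belonged to Gbp2, a guanylate-binding protein of interferon responses, at -0.66 with overlapping groups (edgeR, adjusted p = 0.299). Con 1, at 248 CPM, was the highest mouse, and the estimate was -0.28 without it and -0.91 without Con 2.

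Of 27 other caspases and death effectors 21 were tested, with a median of -0.06, and 2 were called, both lower: Gsdme and Mlkl, the pore former of necroptosis. Mlkl was at 16.5, 15.6 and 17.1 CPM in Con and 11.2, 11.5 and 12.7 in Van, a separation of the groups with a log2 fold change of -0.47 ± 0.09 (edgeR, adjusted p = 0.0388, and 0.0702 to 0.157 with any 1 mouse left out). Casp9, the initiator of the mitochondrial pathway, had the highest estimate, 0.13 (adjusted p = 0.377), and Chmp4b, a membrane repair protein and the most abundant of the list, was at -0.00 (adjusted p = 0.996).

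Of 14 cytokines, receptors and inhibitors 13 were tested, with a median of 0.03, and 1 was called, Il18r1, a chain of the IL-18 receptor. It fell from 3.59, 5.19 and 5.15 CPM to 2.22, 1.39 and 1.95, a log2 fold change of -1.32 ± 0.24 (edgeR, adjusted p = 0.0336). At this low level the size depended on the scale, with -0.52 for limma on log2(FPKM + 1) (adjusted p = 0.0656) and -1.12 on log2(FPKM + 0.1) (adjusted p = 0.157). The call held without Con 1 (0.0447) and was lost when any other mouse was left out (edgeR, adjusted p = 0.0593 to 0.143). The other receptor chain, Il18rap, was at 2.85, 1.48 and 1.41 CPM in Con and 2.01, 2.59 and 2.66 in Van, which overlapped. The caspase-1 substrate Il1b was at 342, 263 and 267 CPM in Con and 284, 266 and 217 in Van (log2 fold change -0.19, 95% interval -0.47 to 0.10; edgeR, adjusted p = 0.527), with -0.06 without Con 1 and -0.08 without Van 3. The other substrate, Il18, was at 34.6, 37.6 and 35.6 in Con and 34.0, 41.5 and 34.7 in Van (log2 fold change 0.03, -0.17 to 0.23; adjusted p = 0.912), so the groups overlapped for both.

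Of 30 genes of NOD1 and NOD2 signalling 28 were tested and 0 were called by edgeR, with 7 at an unadjusted p under 0.05, as 16.5% of all genes had, and a median of -0.06. Slc15a4, a transporter of muropeptides in endolysosomes, had the highest estimate, with 149, 132 and 144 CPM in Con below 175, 169 and 165 in Van (log2 fold change 0.26; adjusted p = 0.0778 with edgeR and 0.00730 with DESeq2). Irgm1, an interferon-inducible GTPase, had the lowest, -0.30 with overlapping groups (adjusted p = 0.271), and -0.15 without Con 1. Tnfaip3 (A20), which restrains NF-κB and was the most abundant, ranged from 418 to 731 CPM in Con and from 454 to 656 in Van.

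**Figure D5:**
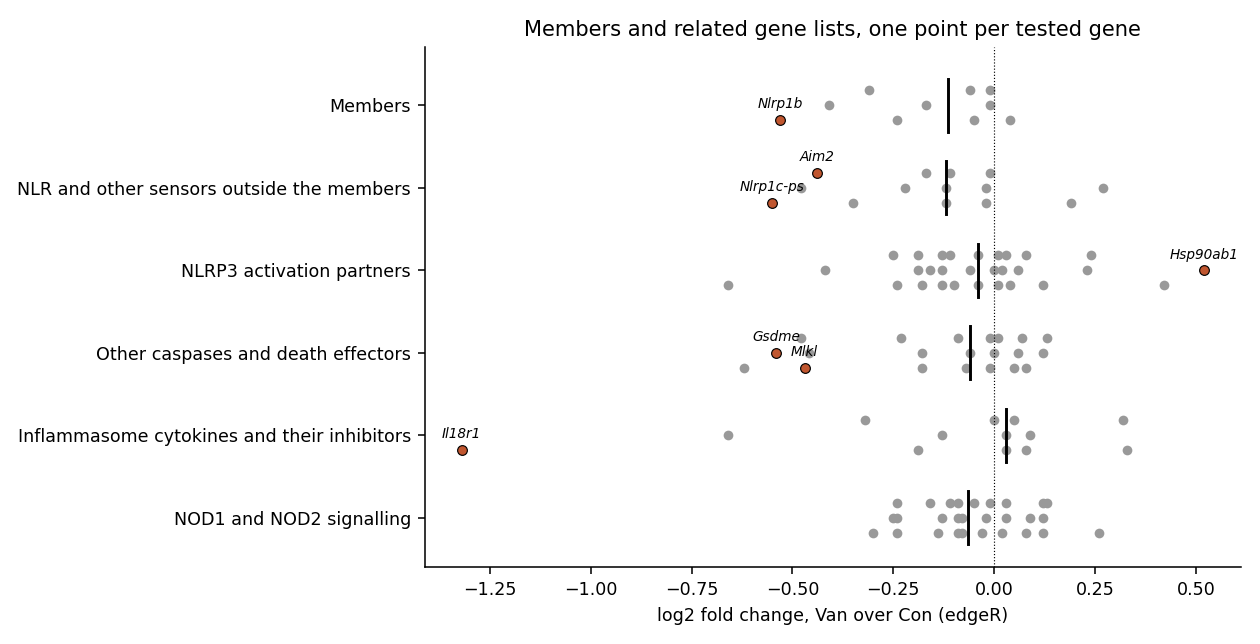
Log2 fold change of Van over Con (x axis, edgeR) for the 10 members and for each tested gene of the 5 related lists (rows), 1 point per gene, with a black bar at each row's median. Orange points with names passed an adjusted p of 0.05: Hsp90ab1 to the right of 0, and Nlrp1b, Aim2, Nlrp1c-ps, Gsdme, Mlkl and Il18r1 to the left.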

How the data were processed

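Each mouse, 3 Con and 3 Van by the treatment in the labels, gave 1 library of splenic monocyte mRNA. The authors aligned reads to GRCm38 with HISAT2 2.2.1 and SAMtools 1.9. The FPKM values, which are relative to transcript length and to the fragments mapped, were made by the authors with StringTie 2.1.3 and Ballgown. The deposited estimated counts were derived by the authors from these with tximport, and the submitters' notes also name DESeq2 1.38.3. Which annotation release was used, how reads aligning to several places were treated and whether counting used the strand are not given in the sources used here.

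After rounding of the estimated counts, edgeR 4.0.16 (R 4.3.3) was used for TMM scaling, for its filter on low expression (minimum count 10) and for a quasi-likelihood test of Van against Con without covariates. Benjamini-Hochberg adjustment ran over the 16138 genes that passed the filter, with 0.05 as the highest adjusted p for a call. Intervals are 95%. Counts multiplied by 75 came out whole within 0.05 for 53.4% of values above 0, against 9.79% at 74, so the counts appear to be read bases over 75, although reads of 100 bases are stated. At 200 bases a fragment this would make 16.3M to 23.2M fragments a library, more than the stated sequencing target, and the scale is not settled. The edgeR SE is the size of the log2 fold change over the square root of the test's F value, and the intervals use this SE. Both rest on the spread between mice, with variances moderated across the genes tested.

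The members and the 5 lists of related genes and 13 lists of cell type markers were chosen with earlier results of these data known. Named beside the members were list genes that were called, the most abundant gene of each list and, among its genes averaging 1 CPM or more, the highest and lowest fold change, Il1b, Il18, Naip1, Naip2, Naip6 and Nlrp1a, and the 3 genes most like the member with the smallest p. In the lists 4 genes were matched by identifier to older symbols. Positions and transcripts are from GENCODE M21 (GRCm38), with transcripts compared by blastn 2.17.0.

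The alternatives were DESeq2 1.42.0 (Wald test), scaling by RLE factors or by library size only, no filter, a minimum of 10 counts in each library, a block for the replicate number, limma 3.58.1 on FPKM after quantile normalization, as log2 with a pseudocount of 1 or 0.1, a single identifier per symbol, CPM per kilobase of the longest transcript in place of FPKM for levels, and each mouse left out. The fragment scale and the summed counts of the Nlrp1 and Naip families were added after the data were seen. The tests were run on simulated counts first.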

Additional observations from a re-analysis of the deposited data

How the results depend on the processing

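The count of members called, 1 with edgeR, was 3 with DESeq2, 2 each with RLE size factors, at least 10 counts in every library, a single identifier per symbol or the fragment scale (added after the data were seen), and 0 with limma on log2(FPKM + 1) or log2(FPKM + 0.1) and with any 1 mouse left out (0 to 0). At an unadjusted p under 0.05 these 0 counts stood beside 4 members for both limma fits and 3 or 4 without a mouse. Nlrp1b was called under 7 and Casp1 under 5 of 16 alternatives, Nod2 under 1 (DESeq2) and the other 7 members under 0, and the number of members with no overlap was 4 under each scaling, filter and identifier alternative and 4 or 5 with a mouse left out. Groups separate more easily with fewer mice, and the share over all genes was not counted with a mouse left out. The count over all genes, 322, was 962 with DESeq2, 24 with limma on log2(FPKM + 1), 0 with log2(FPKM + 0.1) (2388 at an unadjusted p under 0.05) and 21 to 136 without a mouse. The calls were 54.0% higher in Van with edgeR, 83.3% with limma on log2(FPKM + 1), 90.9% without Con 3 and 85.7% without Van 2. The count in the lists, 6, was 14 with DESeq2, 1 and 0 with the limma fits (27 and 17 at an unadjusted p under 0.05) and 0 to 1 without a mouse. Sign changes were limited to small estimates. Chmp4b was 0.0030 with library size alone and 0.0020 with no filter. Without single mice, log2 fold changes ran from -0.01 to 0.10 for Nlrp3, -0.03 to 0.02 for Nlrc4, -0.04 to 0.02 for Gsdmd, -0.15 to 0.26 for Tnfaip3, -0.06 to 0.08 for Il18 and -0.05 to 0.09 for Chmp4b, and reached 0.04 for Nlrp1a. The causes of these shifts were not tested.

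No pairing by replicate number was seen over all genes tested, where deviations of same-numbered mice correlated at 0.0253, -0.00192 and -0.0726. A pairing that affects only some genes was not tested. With the replicate block in edgeR the SE of Nod2 was 0.07, against 0.12 without it, and that of Nlrp1b was 0.09 with and without it. With the replicate number as a block in edgeR, 0 members (4 at an unadjusted p under 0.05), 0 list genes and 110 genes in all were called, and Chmp4b was 0.0026.

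The smallest exact permutation p for 3 mice against 3 is 0.10. The Naip5 level is uncertain because of its copies, and RNA levels say nothing of assembled or cleaved protein.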

Other observations

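The members differed in how much they varied among mice of a group. In Con, the coefficient of variation of CPM was lowest for Casp1, 1.52%, and highest for Nod2, 17.0%, followed by Casp4 at 12.3% and Nlrp1b at 11.6%. In Van it was lowest for Casp4, 1.39%, and highest for Pycard, 12.2%. Con 1 held the highest Con value of Nlrp1b, Nod2, Casp1, Casp4, Pycard and Nod1 and the lowest of Nlrp3 and Naip5.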
